A study of Macaca radiata with 4 samples.

Results

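Immediate early transcription factors were followed in the corpus luteum of bonnet monkeys (Macaca radiata) given LH back after its withdrawal. The set was defined by name as EGR1, EGR2, EGR3, FOS, FOSB, JUN, JUNB, ATF3, MYC and NR4A1, and its probe sets were those annotated with 1 of these symbols alone. Of the 10 genes, 6 had such a probe set (EGR2, FOS, JUNB, ATF3, MYC and NR4A1), out of 14132 genes with a symbol on the array, and together they had 10 probe sets: 3 for ATF3, 2 each for EGR2 and NR4A1, and 1 each for FOS, JUNB and MYC. No probe set was matched to EGR1, EGR3, FOSB or JUN with the annotation used here, and these 4 genes were not analysed. A filter on the mean log2 level over all 4 arrays, equal to a signal of 90.7, was passed by 8 of the 10 probe sets, which still covered all 6 genes.

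All animals were females in the luteal phase, and all received CET, which per the labels inhibits the secretion of endogenous LH, on day 7 at a dose of 150 µg/kg. The rhLH group was injected intravenously 24 h later with recombinant LH (rhLH, 20 IU/kg; arrays called replicates 3 and 4), and the PBS group with the saline vehicle (replicates 1 and 2). The labels give no ages. The corpus luteum was taken 8 h after the injection in both groups. Each of the 4 arrays, an Affymetrix design for the rhesus macaque, came from total RNA of whole luteal tissue. The labels describe 2 animals per group without tying each array to an animal, so p-values measure the spread between these arrays, which may in part be technical.

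Immediate early genes are switched on by signals such as growth factors, stress or cAMP without new protein synthesis, and their transcripts are usually short-lived. In ovarian steroidogenic cells LH acts through its receptor, cAMP, protein kinase A and the MAP kinases, which activate CREB and serum response factor at the promoters of such genes. Their products are transcription factors that in turn set the expression of later genes. EGR2 is a zinc finger factor, FOS and JUNB pair with each other in the AP-1 complex, ATF3 is a related basic leucine zipper factor, MYC acts together with MAX in growth control, and NR4A1 is an orphan nuclear receptor that in steroidogenic cells acts on genes of steroid synthesis.

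PBS replicate 1 stood apart from the other arrays. Its Pearson correlation with them across the 31659 probe sets kept was 0.752 to 0.780, against 0.940 to 0.947 among the other 3, and its 3′ to 5′ signal ratio for actin was 11.2, against 1.49 to 1.59 on the other 3. For GAPDH that ratio was 3.23 on PBS replicate 1 and 1.62 to 2.28 elsewhere. Each factor's difference is therefore also given against each PBS array. As a check of the tissue, 4 of the 7 luteal marker genes were measured (STAR, HSD3B2, CYP19A1 and INHA), and their summed signal was 135658 and 146408 on the rhLH arrays, against 59424 and 135976 on PBS replicates 1 and 2.

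EGR2, MYC and NR4A1 had lower signals after rhLH on every array than after PBS on any, on the brightest probe set of each. The differences were 3.64-fold, 1.98-fold and 2.73-fold. For NR4A1 the groups were separated by a log2 step of only −0.02, and its other probe set overlapped between the groups, with PBS replicate 1 the lowest array. For FOS and JUNB both rhLH arrays lay below PBS replicate 2, whereas rhLH replicate 4 lay above PBS replicate 1, and the probe sets of ATF3 did not run one way. No probe set passed limma's test. Counted by probe set, both rhLH arrays lay below both PBS arrays for 4 of the 8 kept, against a background of 17.7% of all probe sets kept, and above them for 0 of 8 (background 14.4%). The mean difference was below 0 for 7 of the 8 (background 52.5%). Counted by the brightest probe set of each gene, this was 3 of 6 genes below (background 16.1%) and 0 above (background 16.3%). After quantile normalization it was 4 of the 9 probe sets then kept (background 14.8%), and with each array centred on its median it was 3 of 8 probe sets below (background 11.3%) and 0 above (background 22.3%). NR4A1 was the gene that then overlapped. In whole tissue, fewer cells expressing a gene and less RNA per cell cannot be told apart.

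**Figure D1:**
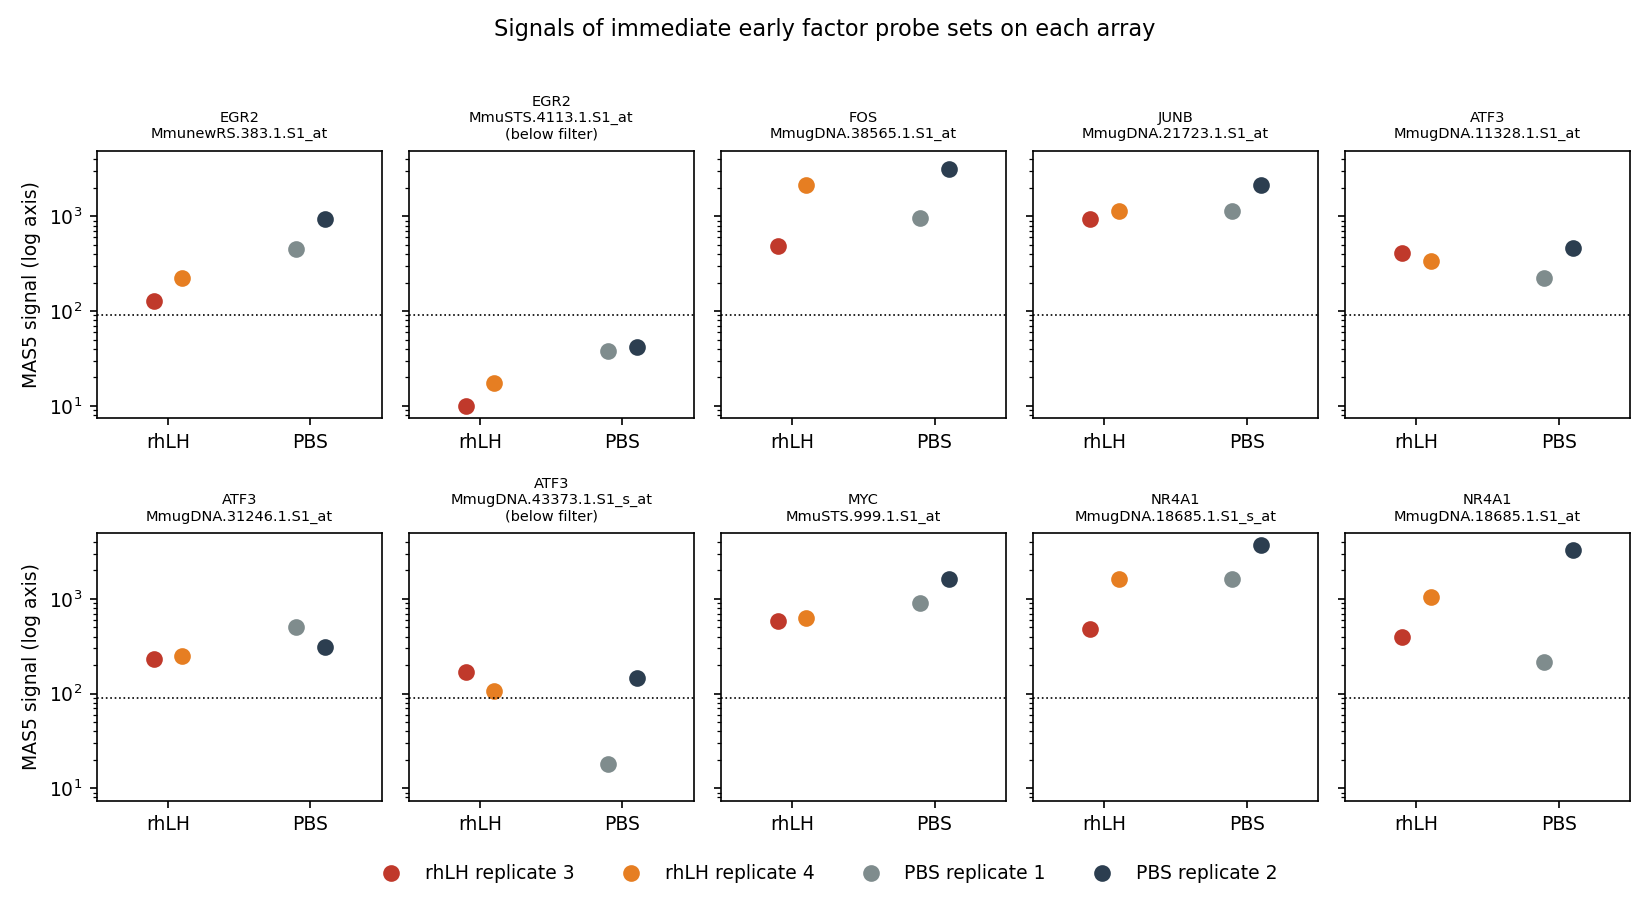
MAS5 signal (log axis) of the 10 probe sets of immediate early factors on each of the 4 arrays, rhLH left and PBS right in each panel, with 1 point per array. The dotted line marks the filter level of 90.7; EGR2 and MYC have both rhLH points below both PBS points, whereas FOS spans 481 and 2137 on the rhLH arrays themselves.

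EGR2 binds GC-rich promoter sites and is held in check by the co-repressors NAB1 and NAB2. Its probe set MmunewRS.383.1.S1_at had signals of 127 and 221 on rhLH replicates 3 and 4, against 455 and 935 on PBS replicates 1 and 2. The groups did not overlap, and the higher rhLH signal lay below the lower PBS signal. The means were 174 ± 66.9 with rhLH and 695 ± 339 with PBS (SD, n = 2 each). The log2 difference, rhLH minus PBS, was −1.86 (SE 0.55; 95% interval −3.20 to −0.52; −1.36 and −2.37 against PBS replicates 1 and 2 singly), which ranked 128 by p among all 31659 probe sets and had a limma adjusted p of 0.919. EGR2 narrowly missed a 2-fold rule, which asks that each rhLH array lie 2-fold or more from each PBS array on the same side, since rhLH replicate 4 lay 0.99 below PBS replicate 1 on the log2 scale. With a pseudocount of 1 in place of 16 it met the rule. Its second probe set, MmuSTS.4113.1.S1_at, lay under the filter and was not tested; its signals of 9.95 and 17.3 after rhLH and 38.0 and 42.2 after PBS had the same order of arrays as the first.

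FOS, the AP-1 partner best known as an early response gene, had signals of 481 and 2137 on rhLH replicates 3 and 4, against 958 and 3151 on PBS replicates 1 and 2. The groups overlapped, because rhLH replicate 4 lay between the PBS arrays. The means were 1309 ± 1171 with rhLH and 2054 ± 1551 with PBS (SD, n = 2 each), and the log2 difference was −0.76 (SE 0.85; 95% interval −2.85 to 1.33; limma adjusted p = 0.919). The direction of FOS rested on single arrays: its difference was 0.09 without PBS replicate 2 and 0.29 without rhLH replicate 3.

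JUNB, the JUN family member that often restrains c-Jun activity, had signals of 932 and 1144 on the rhLH arrays, against 1135 and 2130.3 on the PBS arrays. The rhLH arrays and PBS replicate 1 had like signals, and PBS replicate 2 stood above them. The log2 difference was −0.58 (SE 0.41; 95% interval −1.60 to 0.43; limma adjusted p = 0.919), with −0.13 against PBS replicate 1 alone and −1.03 against replicate 2.

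ATF3, a stress-inducible factor that can repress its targets as a homodimer, was read by 3 probe sets that disagreed. On the brightest, MmugDNA.11328.1.S1_at, its signals were 409 and 336 on rhLH replicates 3 and 4, against 225 and 462 on PBS replicates 1 and 2 (log2 difference 0.19, SE 0.50; limma adjusted p = 0.948). MmugDNA.31246.1.S1_at gave 230.3 and 249.8 after rhLH, against 505 and 311 after PBS (log2 difference −0.69, SE 0.46; limma adjusted p = 0.919). These groups did not overlap, with both rhLH signals under both PBS signals. MmugDNA.43373.1.S1_s_at, which did not pass the filter, gave 170.2 and 106 after rhLH, against 18.1 and 145 after PBS. PBS replicate 1 was the lowest array on MmugDNA.11328.1.S1_at and MmugDNA.43373.1.S1_s_at and the highest on MmugDNA.31246.1.S1_at. In the order given, the log2 differences were 0.68, −1.03 and 2.14 against PBS replicate 1 alone and −0.31, −0.35 and −0.09 against replicate 2.

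MYC, a driver of growth and ribosome production, had signals of 582 and 630.4 on the rhLH arrays, against 909 and 1614 on PBS replicates 1 and 2. The rhLH arrays lay close together and below both PBS arrays. The means were 606 ± 34.3 with rhLH and 1261 ± 499 with PBS (SD, n = 2 each), and the log2 difference was −0.98 (SE 0.40; 95% interval −1.98 to 0.01; limma adjusted p = 0.919). Against the PBS arrays singly it was −0.57 (replicate 1) and −1.39 (replicate 2).

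NR4A1, also known as NUR77, was read by a pair of probe sets of the same design number. On MmugDNA.18685.1.S1_s_at its signals were 487 and 1605 on rhLH replicates 3 and 4, against 1633 and 3684 on PBS replicates 1 and 2. The groups were separated only by the small step between rhLH replicate 4 and PBS replicate 1, a log2 difference of −0.02. The means were 1046 ± 790.4 with rhLH and 2658 ± 1451 with PBS (SD, n = 2 each), and the log2 difference was −1.45 (SE 0.67; 95% interval −3.10 to 0.20; limma adjusted p = 0.919). Set against PBS replicates 1 and 2 singly it was −0.87 and −2.03. Without rhLH replicate 3 it was −0.61 and without rhLH replicate 4 it was −2.30. On MmugDNA.18685.1.S1_at the signals were 400.3 and 1055 after rhLH, against 218 and 3253 after PBS, so that PBS replicate 1 was the lowest array and PBS replicate 2 the highest. That log2 difference of −0.39 (SE 1.23; limma adjusted p = 0.958) joined a value of 1.52 against PBS replicate 1 to one of −2.29 against replicate 2. Both NR4A1 probe sets were thus more than 2 log2 units lower with rhLH than on PBS replicate 2 and disagreed in sign against PBS replicate 1.

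**Figure D2:**
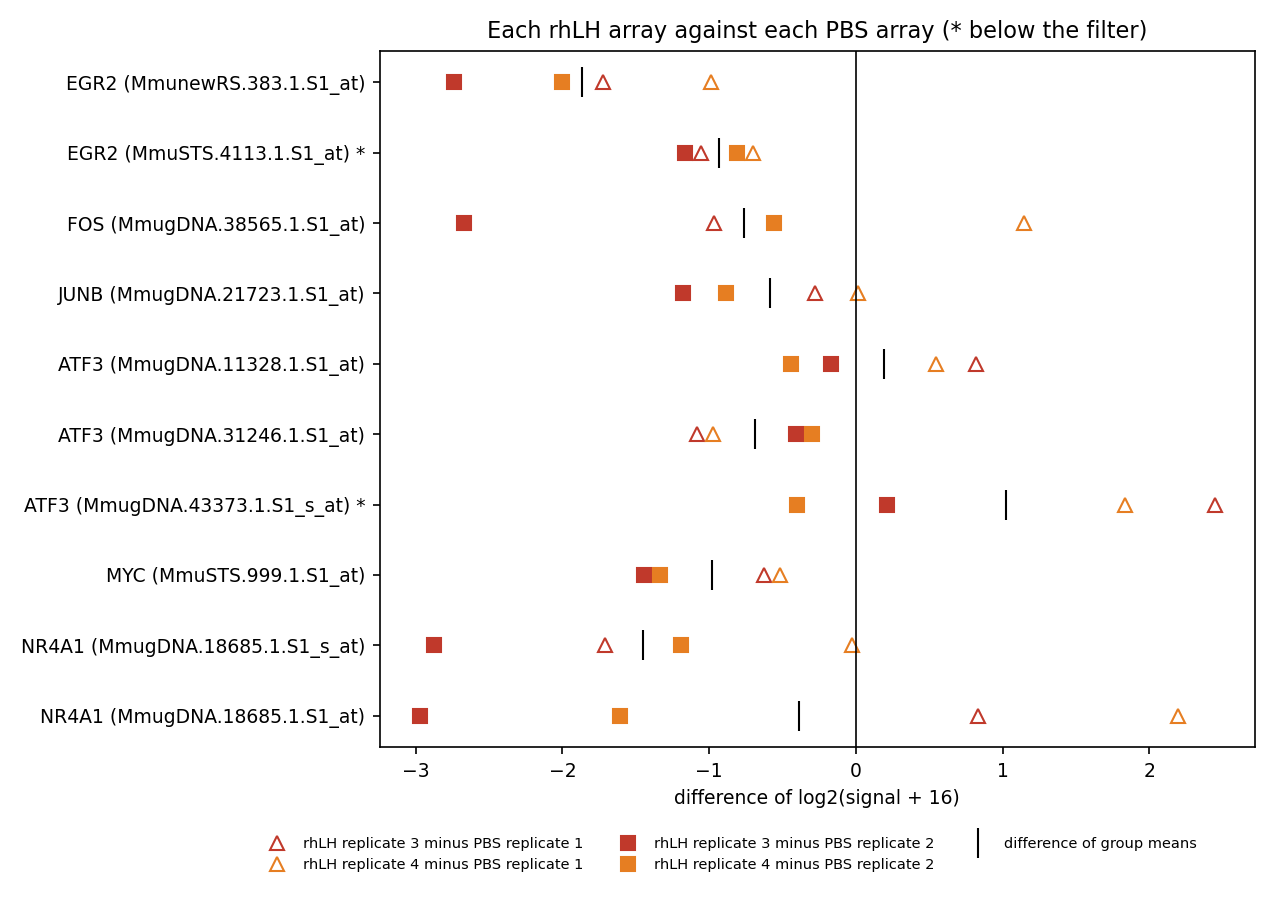
Differences of log2(signal + 16), each rhLH array minus each PBS array, for the 10 probe sets, with the difference of the group means as a vertical tick. Against PBS replicate 2 (squares) both points lie below 0 for all 8 probe sets that passed the filter; against PBS replicate 1 (triangles) both do so for 4 of the 8.

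Limma called 0 of the 8 kept probe sets at an adjusted p of 0.05, and 0 of all 31659 (0%), the smallest adjusted p being 0.919. Without PBS replicate 2 it called 8169 probe sets (background 25.8%), of which 0 were factors, and without PBS replicate 1 it called 0. At an unadjusted p under 0.05 it found 1 of the 8, EGR2, against a background of 2.02% in either direction and 1.15% on the lower side. By the 2-fold rule 0 of the 8 were lower (background 0.49%) and 0 were higher (background 0.344%), and of the 6 genes 0 were lower (background 0.336%) and 0 higher (background 0.318%). For a single value an exact permutation test of 2 arrays against 2 cannot give a two-sided p below 0.333. The 95% intervals, not all of them given above, run over more than 2 log2 units for 7 of the 8 probe sets and over just under 2 for MYC. A missed threshold therefore does not show that these genes were alike in the groups.

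The median log2 difference over the 6 genes was −0.87, against 0.02 over all 10998 genes kept, and 5 of the 6 had a negative difference, as had 48.6% of all genes. Against PBS replicate 1 the median of the 6 was −0.35, and against PBS replicate 2 it was −1.50, where all genes had medians of −0.01 and 0.00. Centring each array on its median, which shifts the differences of all genes alike, put the median of all genes at 0.25 and that of the factors at −0.64. The 6 genes were chosen by name with earlier results of these arrays known, and the 2 comparisons share the rhLH arrays.

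Set against PBS replicate 2 alone, both rhLH arrays were lower for 8 of 8 kept probe sets (background 34.9%) and for 6 of 6 genes (background 34.1%). Set against PBS replicate 1 alone, both were lower for 4 of 8 probe sets (background 47.6%) and 3 of 6 genes (background 43.5%). The differences against PBS replicate 2 were −2.37 for EGR2, −2.03 for NR4A1, −1.61 for FOS, −1.39 for MYC, −1.03 for JUNB and −0.31 for ATF3. A limma fit without PBS replicate 1 gave these same differences. It takes the lone PBS array to vary as the rhLH arrays do, so it cannot measure the spread between PBS arrays. No factor passed the adjusted threshold in that fit, which rests on a single PBS array. At an unadjusted p under 0.05 that fit had 5 of the 8 probe sets lower, against a background of 2.8%: EGR2, JUNB, MYC and both of NR4A1.

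Most of the factors also ran the same way between the 2 arrays of a group, which gives 1 contrast per group. PBS replicate 2 was the highest of the 4 arrays for 7 of the 8 kept probe sets (background 20.8%) and for the brightest probe set of all 6 genes (background 21.5%). The exception, MmugDNA.31246.1.S1_at of ATF3, was the 1 of 8 that was highest on PBS replicate 1 (background 44%), so that 7 of the 8 were higher on PBS replicate 2 than on PBS replicate 1 (background 45.9%). The share of genes highest on PBS replicate 2 was also 40% among other immediate early genes and 40% among steroidogenic genes. It was 29.4% in the AP-1, ATF and CREB families, 20% in the MYC network and 0% among EGR and NR4A relatives and co-repressors. Signals were lowest on rhLH replicate 3 for 6 of the 8 (background 23.1%), and 5 of the 8 were both highest on PBS replicate 2 and lowest on rhLH replicate 3 (background 3.99%). Within the rhLH group 7 of the 8 were higher on replicate 4 than on replicate 3 (background 50.9%). FOS was 2.11 higher on the log2 scale on replicate 4, and the NR4A1 probe sets were 1.69 and 1.36 higher. These 3 of 8 differed at least 2-fold in that direction, which 4.18% of all probe sets did. EGR2 differed by 0.73, JUNB by 0.29, MYC by 0.11 and the brightest ATF3 probe set by −0.27. For FOS and NR4A1 the step between the rhLH arrays was thus larger than the difference between the group means.

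**Figure D3:**
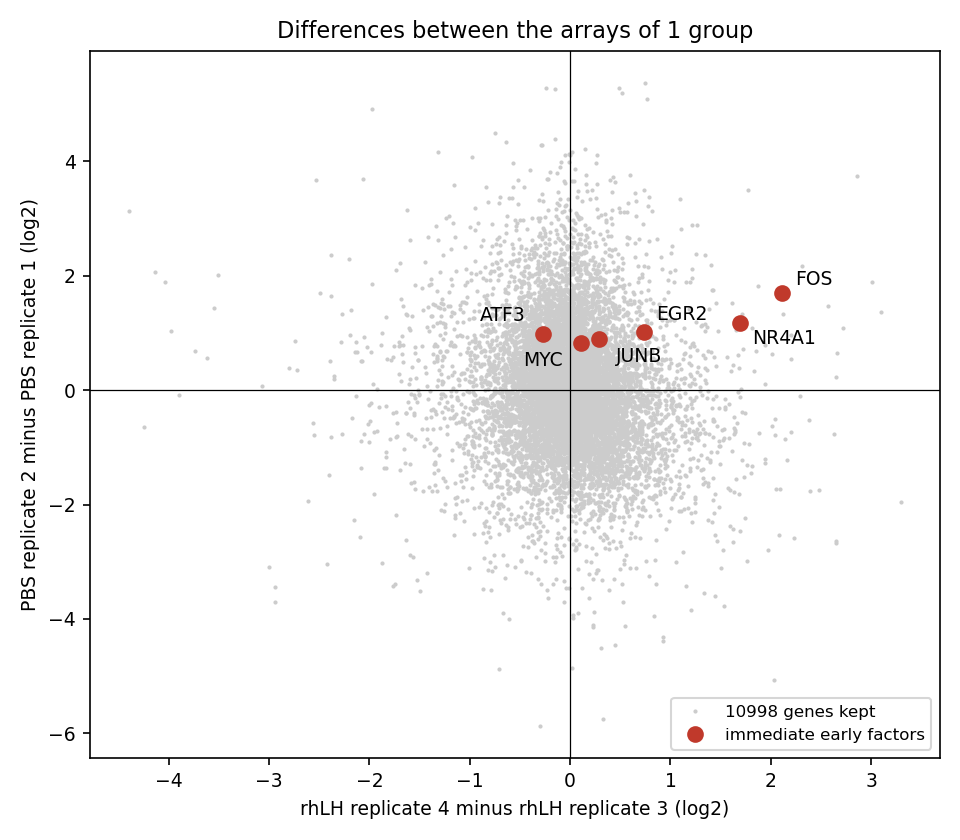
Each point is a gene (brightest probe set), placed by the log2 difference between the rhLH arrays (horizontal, replicate 4 minus replicate 3) and between the PBS arrays (vertical, replicate 2 minus replicate 1); red points are the 6 immediate early factors and grey points the 10998 genes kept. All 6 lie above 0 on the vertical axis (0.82 to 1.70), and FOS and NR4A1 lie far right (2.11 and 1.69).

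Relatives of these factors were measured beside them. Of 21 listed genes of the AP-1, ATF and CREB families, 17 were kept, 3 of them above both PBS arrays (17.6%, background 16.3% of genes) and 0 below (background 16.1%), and the median log2 difference was 0.25 (0.71 and 0.01 when set against PBS replicates 1 and 2 singly). BATF3, a JUN partner known from immune cells, had signals of 677 and 309 after rhLH, against 35.9 and 130.4 after PBS, of which the lower lay under the filter level. Its log2 difference was 2.44 (SE 0.72; limma adjusted p = 0.919). The mean log2 level of its PBS arrays was under the filter, so BATF3 was kept only through its rhLH signals, and its passing of the 2-fold rule is no support for a difference. CREM, whose cAMP-induced short form represses CREB targets, had signals of 4088 and 2925 after rhLH, against 2000.1 and 2650.2 after PBS (log2 difference 0.58). Of its 4 further probe sets 3 were higher with rhLH, by 0.57, 0.67 and 1.31 on the log2 scale, and 1 was lower, at −0.22.

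Of 5 listed EGR and NR4A relatives and co-repressors, 2 were kept, and 1 lay below both PBS arrays (background 16.1% of genes). NAB1, the EGR co-repressor, had signals of 1074 and 1083 after rhLH, against 2867 and 1319 after PBS (log2 difference −0.84), and its further probe set stood at −0.87. NR4A2, a close relative of NR4A1 named here after its values were seen, had signals of 1072 and 1777 after rhLH, against 2428 and 1614 after PBS. All 5 of its kept probe sets had negative differences, −0.36 to −1.72, and 3 of them lay below both PBS arrays (background 17.7% of probe sets). Of 12 genes of the MYC network 10 were kept, 1 above both PBS arrays (10%, background 16.3% of genes) and 1 below (10%, background 16.1%), with a median of 0.12. These were MLXIP (0.61) and MGA (−0.23; its further probe set 0.47), and MAX, the partner of MYC, named after its values were seen, overlapped between the groups, with 12417 and 14343 after rhLH against 14492 and 12001 after PBS.

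Other immediate early genes had more members below than above both PBS arrays, a difference that was lost without PBS replicate 2. Of 54 listed genes 40 were kept, 11 of them below both PBS arrays (27.5%, background 16.1% of genes) and 4 above (10%, background 16.3%), and the median log2 difference was −0.17. Without PBS replicate 2 the counts were 17 below (42.5%, 44% of all genes) and 17 above (42.5%, 42.9% of all genes), and without PBS replicate 1 they were 22 below (55%, 34.3% of all genes) and 6 above (15%, 34.3% of all genes). With arrays centred on their medians the counts were 7 below (17.5%, 9.48% of all genes) and 5 above (12.5%, 25.8% of all genes). The median was then 0.05, against 0.25 over all genes. Over all genes kept, the share of lower genes among those that did not overlap was 26.9% under centring and 49.7% without it. AREG, an epidermal growth factor receptor ligand, had signals of 6813 and 13095 after rhLH, against 17988 and 28762 after PBS. CCN1, a matrix-associated signalling protein, had signals of 1039 and 1907 after rhLH, against 4223 and 3157 after PBS (log2 difference −1.36, SE 0.41; limma adjusted p = 0.919). In both genes rhLH replicate 3 was the lowest array, as it was for FOS. The other 9 below both PBS arrays, named after their values were seen, were CCN2 (−1.13), TRIB1 (−1.02), NFKBIA (−0.85), KLF10 (−0.80), HES1 (−0.79), DUSP5 (−0.56), ZFP36L2 (−0.51), F3 (−0.45) and KLF4 (−0.34). The differences of these 9 ran from −1.33 to −0.32 against PBS replicate 1 and from −1.35 to −0.25 against PBS replicate 2.

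On the higher side of the same list stood RGS2, which dampens G protein signals, and PHLDA1, an apoptosis-related gene. RGS2 had signals of 21202 and 18546 after rhLH, against 4556 and 13512 after PBS (log2 difference 1.34), and its further probe set stood at 0.35. PHLDA1 had 4235 and 5939 after rhLH, against 3623 and 2828 after PBS (log2 difference 0.65). All 4 further probe sets of PHLDA1 were on the same side, at 0.10 to 0.70. Both rhLH arrays lay below PBS replicate 2 for 22 of the 40 genes (55%, background 34.1%) and below PBS replicate 1 for 16 (40%, background 43.5%). The list overlaps in kind with the 6 factors, and AREG and RGS2 were known from earlier results of these arrays.

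**Figure D4:**
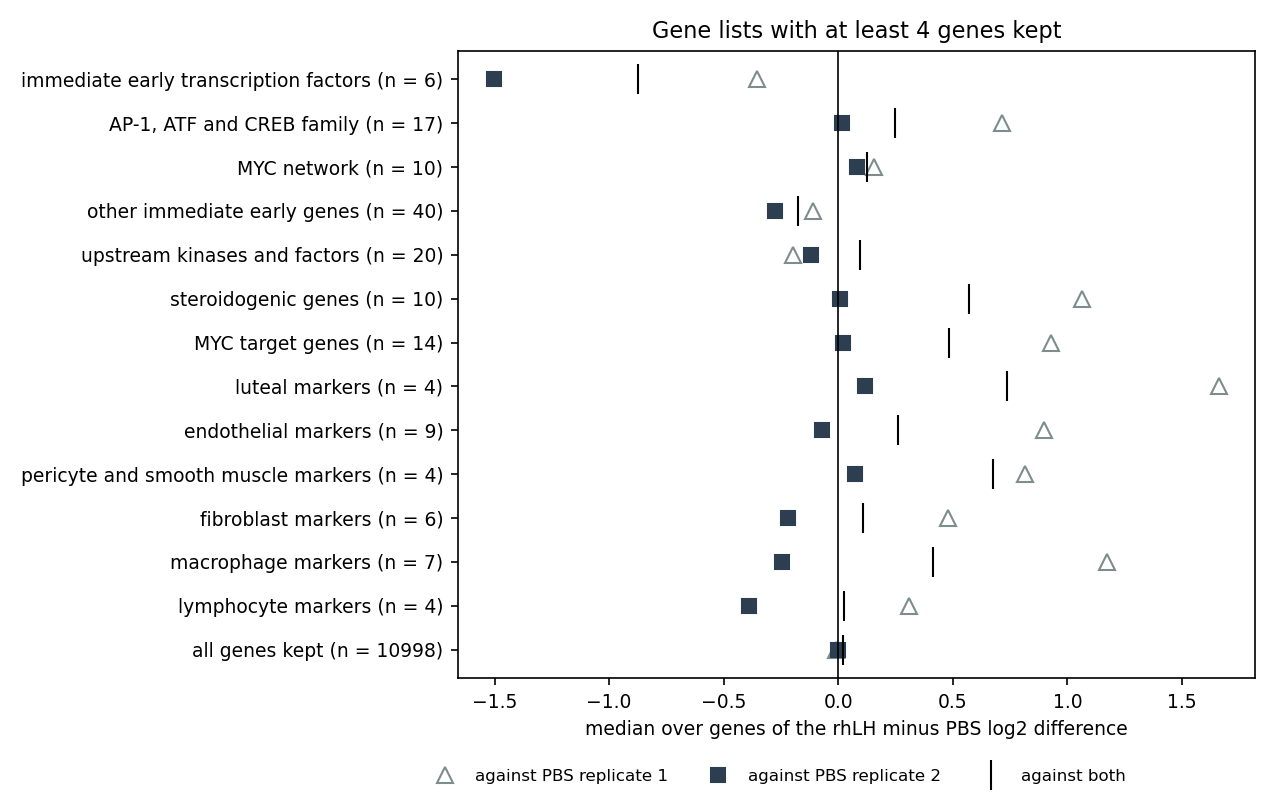
Median log2 difference, rhLH minus PBS, over the genes of each list with at least 4 genes kept, against PBS replicate 1 (triangles), PBS replicate 2 (squares) and both (vertical ticks), with all genes kept at the bottom. The immediate early factors have the lowest median of the plotted lists against each PBS array (−0.35 and −1.50); most other lists lie at or above 0 against PBS replicate 1 and near 0 against PBS replicate 2. The list of EGR and NR4A relatives and co-repressors, with 2 genes kept, is not plotted. Its medians were −1.10 and −0.25 against PBS replicates 1 and 2.

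Upstream, 20 of 27 listed kinases and promoter-binding factors were kept, with 6 below both PBS arrays (30%, background 16.1%) and 2 above (10%, background 16.3%). The median was 0.09 pooled but −0.20 against PBS replicate 1 and −0.12 against PBS replicate 2, so the sign depended on how the PBS arrays were combined. ELK4, which binds serum response elements with serum response factor, had signals of 98.9 and 109 after rhLH, against 249 and 135 after PBS. MEF2A, a regulator of JUN and NR4A1 promoters in other cells, had signals of 1866 and 2342 after rhLH, against 4291 and 2640 after PBS (log2 difference −0.68). Its 3 further probe sets stood at −0.11, −0.34 and −0.82. MAP2K1, the kinase above ERK, and ELK3 were above both PBS arrays by small amounts (0.35 and 0.16), and the further probe set of ELK3 stood at −0.24.

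Downstream, of 20 genes that MYC is known to activate 14 were kept, 5 above both PBS arrays (35.7%, background 16.3%) and 1 below (7.14%, background 16.1%), with a median log2 difference of 0.48, or 0.93 and 0.02 when set against PBS replicates 1 and 2 singly. PHB, a prohibitin gene, had signals of 7139 and 6587 after rhLH, against 1696 and 5453 after PBS (log2 difference 1.17), and its further probe sets stood at 1.59 and 0.39. SRM, spermidine synthase, had signals of 3024 and 3320.3 after rhLH, against 788 and 2999.8 after PBS. EIF4E, the cap-binding translation factor, was the gene below, with 293 and 346 after rhLH against 402 and 432 after PBS. Of 19 steroidogenic genes, among which are reported NR4A and AP-1 targets, 10 were kept, 4 above both PBS arrays (40%, background 16.3%) and 1 below (10%, background 16.1%). The gene below was NR0B1, a repressor of NR5A1, with signals of 77.6 and 127 after rhLH and 133 and 218 after PBS. Of those above, CYP19A1, aromatase, had a log2 difference of 2.11 (3.10 and 1.13 against PBS replicates 1 and 2 singly). HSD17B1, an estrogen-forming dehydrogenase, had signals of 273 and 319 after rhLH, against 67.1 and 51.4 after PBS, both under the filter level. It was kept only through its rhLH signals, so its place among the 4 above is no support for a difference. Its log2 differences were 1.91 and 2.21 against PBS replicates 1 and 2 singly. The medians of this list were 1.06 against PBS replicate 1 and 0.01 against PBS replicate 2.

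Markers of other cells in the tissue were set beside these values. For lymphocytes 4 of 11 listed markers were kept, with summed signals of 8483 and 2482 on rhLH replicates 3 and 4 and of 823 and 15333 on PBS replicates 1 and 2. Most of that sum was GNLY, a cytotoxic granule protein named after its values were seen, at 8054 and 2041 after rhLH and 476 and 14791 after PBS. For macrophages 7 of 8 were kept (10436 and 6359 after rhLH, 4692 and 9859 after PBS), and for endothelium 9 of 10 (22113 and 24514 after rhLH, 18354 and 26505 after PBS). For fibroblasts 6 of 7 were kept (54979 and 61369 after rhLH, 32885 and 63767 after PBS), and for pericytes and smooth muscle 4 of 8 (14398 and 17515 after rhLH, 9929 and 13769 after PBS). For neutrophils 3 of 7 were kept (611 and 567 after rhLH, 382 and 705 after PBS), and for erythroid cells 2 of 5 (996 and 1235 after rhLH, 1123 and 899 after PBS). PBS replicate 2, the array with the highest factor signals, also had the highest lymphocyte, endothelial, fibroblast and neutrophil sums, whereas rhLH replicate 3, the array with the lowest, had the highest macrophage sum. These sums weight the brightest genes most, and single markers did not all follow them. PBS replicate 2 was highest for 2 of 4 lymphocyte, 3 of 9 endothelial, 1 of 6 fibroblast, 2 of 3 neutrophil and 3 of 7 macrophage markers (background 21.5% of genes). Lymphocyte markers CD79A and NKG7 and neutrophil markers S100A12 and MPO lay under the filter. The part of cell composition, and of the 3′ to 5′ ratio of PBS replicate 1, in the values of the immediate early factors was not tested.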

How the data were processed

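The values are linear intensities of 52865 probe sets on 4 arrays as the authors deposited them, made with MAS5 per the submitters' processing notes; the sources used here name no scaling target, detection call or filter. They entered the analysis as log2(signal + 16) without further normalization. After 99 control probe sets were set aside, probe sets whose mean log2 lay above the 40th percentile were kept (31659). Symbols were taken from GEO's annotation of the platform, and a gene was read by its brightest kept probe set. Groups came from the sample titles. The rhLH arrays were compared with the PBS arrays in limma 3.58.1 under R 4.3.3 (lmFit, then eBayes with an intensity trend). Its p-values are two-sided and adjusted by Benjamini-Hochberg over all kept probe sets, with a threshold of 0.05. The code was run beforehand on simulated arrays of equal spread with no outlying array, which does not test it for an array such as PBS replicate 1. Backgrounds are the shares of all kept probe sets, or genes, that meet the same rule. Alternatives covered scaling, pseudocount, filter, variance prior, array weights and each array left out. All member probe sets are named; of each further list, up to 2 genes on each side are named, those of greatest difference whose groups did not overlap, and others are marked. The members and lists were chosen with earlier results of these data known. The number of arrays limits the precision, and mismatches between rhesus probes and bonnet monkey transcripts were not examined. No sequence or coordinate is given.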

Additional observations from a re-analysis of the deposited data

How the results depend on the processing

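Of 77 alternative values of single factor probe sets, 72 kept their direction and their side of the limma threshold. The 5 that changed sign all did so with an array left out. The 8 values without a filter and the 5 with the 70th percentile filter repeat the main differences, which a filter cannot alter. Limma called 0 of all probe sets in every setting but the one without PBS replicate 2, so only there could a factor change side. The tally is therefore no measure of stability. FOS stood at 0.09 without PBS replicate 2 and at 0.29 without rhLH replicate 3, the NR4A1 probe set MmugDNA.18685.1.S1_at at 1.52 and 0.29 in the same settings, and the brightest ATF3 probe set at −0.31 without PBS replicate 1. With each array left out in turn FOS ran from −1.82 to 0.29, this NR4A1 probe set from −2.29 to 1.52, and this ATF3 probe set from −0.31 to 0.68. None came to pass the threshold. The count past the 2-fold rule on the lower side was 1 with a pseudocount of 1, and it ran from 0 to 4 as each array was left out in turn. No share of all probe sets is set beside these counts, so they do not show a trait of the factors. The count of probe sets below both PBS arrays was 2 of 5 with a filter at the 70th percentile, which also left fewer to count. By gene that filter gave 2 of 4 (13.8% of all genes). The count by probe set ran from 4 to 8 with an array left out, where fewer arrays make separation easier. Counted by gene, it was 6 of 6 without PBS replicate 1 (34.3% of all genes) and 3 of 6 without PBS replicate 2 (44% of all genes). It was 4 of 6 without rhLH replicate 3 (26.7% of all genes) and 5 of 6 without rhLH replicate 4 (28% of all genes). The count above both ran from 0 to 2, the latter without PBS replicate 2, where by gene it was 1 of 6 (42.9% of all genes). The median over the genes ran from −1.50 (without PBS replicate 1) to −0.35 (without PBS replicate 2). Limma calls over all probe sets ran from 0 to 8169, the latter without PBS replicate 2, with 0 factor probe sets among them. Counts for the list of other immediate early genes under these settings were added after seeing the data. No paired analysis was possible because the labels pair no array of 1 group with an array of the other.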
